A study of Mus musculus with 72 samples.

Results

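The carbonic anhydrases are a family of 10 genes here (Car2, Car3, Car4, Car5b, Car7, Car8, Car9, Car10, Car11 and Car14), measured by RNA-seq in muscle and brain of the same 36 mice. The members were taken by gene symbol from the expression tables. Of the 10, 9 were measured in muscle (all but Car10) among 13543 genes, and 9 in brain (all but Car3) among 15431 genes. The family was selected from measured values, namely the higher Car9 and Car14 mRNA of muscle after stimulation. For the members, the muscle comparisons of stimulated with control mice are therefore described with their values and standard errors, without a p, and counts past the threshold there are descriptions. Members were tested for genotype in muscle (Car9 and Car14 only over both treatments) and in every comparison in brain. Genes outside the family carry their adjusted p in all comparisons.

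The study asked how neuromuscular electrical stimulation (NMES) of the hind legs affects muscle and brain in Klotho heterozygous and wild-type mice. In each tissue there were 12 KlHET NMES, 12 KlHET control, 6 WT NMES and 6 WT control libraries, each from a separate mouse. KlHET mice carry 1 targeted Kl allele (strain B6;129S5-Kl tm1Lex/Mmucd), WT mice carry none, and all were 2 months old. NMES mice received 5 sessions at 9 mA, every other day, each with 2 sets of 10 stimulations per leg under 2.5% isoflurane. Controls were anaesthetised with isoflurane for 15 min on the same days without stimulation. Tissue was taken after perfusion, 24 hours after the last session. Muscle was a grouping of tibialis anterior and extensor digitorum longus, and the tissue labelled brain was prefrontal cortex by the study's methods. The heterozygous allele leaves 1 intact copy of Kl, and animal numbers form a separate series for each genotype, so cohort and genotype cannot be told apart. Sex was not labelled. Reads of Xist were above those of Y-linked genes in some, but not all, libraries of every group. An alternative fit took this as a covariate. The study's legends count fewer KlHET controls than the labels, and all libraries so labelled were used.

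Carbonic anhydrases are zinc enzymes that interconvert CO2 and water with bicarbonate and a proton. Cytosolic members (Car2, Car3, Car7) buffer the cell interior, Car5b supplies bicarbonate inside mitochondria, and Car4, Car9 and Car14 act at the outer face of the plasma membrane. Car8, Car10 and Car11 have lost catalytic residues and are known as carbonic anhydrase-related proteins. In skeletal muscle the family is known for handling the acid and CO2 of contraction, and in brain for the pH around neurons and glia.

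The promoters of Car9 and Car14 are shown because these were the members that moved with NMES in muscle. Each is the 250 bases before the RefSeq start (build GRCm38.p6), and capitals mark ACGTG, on either strand, the core letters of the hypoxia response element. Car9 lies at chr4:43506776-43507025 on the plus strand and Car14 at chr3:95904686-95904935 on the minus strand. For both genes the GENCODE model given below begins upstream of the RefSeq start, so the end of each window, with the marked letters of Car9 and all but the first of those of Car14, lies inside that model.
Car9: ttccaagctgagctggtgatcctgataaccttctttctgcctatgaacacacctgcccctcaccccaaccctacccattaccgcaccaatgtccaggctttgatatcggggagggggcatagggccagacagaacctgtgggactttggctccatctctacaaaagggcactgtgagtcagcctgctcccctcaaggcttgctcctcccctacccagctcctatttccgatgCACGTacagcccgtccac
Car14: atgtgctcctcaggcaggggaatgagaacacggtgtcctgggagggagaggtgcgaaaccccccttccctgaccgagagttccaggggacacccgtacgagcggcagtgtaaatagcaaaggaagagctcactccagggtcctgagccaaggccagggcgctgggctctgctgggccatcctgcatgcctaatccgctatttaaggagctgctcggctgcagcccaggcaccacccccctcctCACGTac
Both windows held a single CACGT, the reverse strand of ACGTG, close to the start. Neither held the related core GCGTG or the E box CAGCTG, which is palindromic and does not overlap the others. ACGTG on either strand was in 16.6% of 32851 RefSeq promoter windows of this length, GCGTG in 28.2% and CAGCTG in 13%. The matches are letters in a window and were not tested as binding sites. Promoter entries were matched for 7 members. Of the other 5 with an entry, Car10 held ACGTG in 1 of its windows, and Car5b, Car7 and Car11 held GCGTG in at least 1 window.

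Libraries had 14.8 to 24.5 M reads in muscle (median 18 M) and 17 to 28 M reads in brain (median 21.4 M). Values below are reads of a gene per M reads of the library (CPM) scaled between libraries by TMM factors. Differences are log2 differences of scaled CPM with 0.5 added, given with the standard error (SE), which understate the change of low genes. The muscle libraries carried their labelled tissue: the summed level of 7 fast fibre genes was 53400 to 110000 CPM. Muscle KlHET NMES replicate 9 stood apart, with 6.39% of reads from the mitochondrial genome against 18.6% or more in every other muscle library. In brain, 7 excitatory neuron genes summed to 1750 to 8230 CPM, the lowest in KlHET control replicate 7 and the next, 3520 CPM, in KlHET NMES replicate 9. The 10 choroid plexus genes summed to 1380 to 2690 CPM in 5 KlHET brain libraries (NMES replicates 3, 6 and 9, control replicates 7 and 9) and to at most 579 CPM in the others. The 9 striatal spiny neuron genes ranged over 302 to 4010 CPM in brain, with the lowest value in KlHET control replicate 7. Kl was measured here in brain only, at medians of 2.68 CPM in KlHET NMES, 2.83 in KlHET control, 3.41 in WT NMES and 3.28 in WT control mice. It did not separate the genotypes (KlHET minus WT 0.17 ± 0.36 SE, limma adjusted p = 0.905), and its highest values, 29.1 and 18.1 CPM, were in KlHET control replicate 7 and KlHET NMES replicate 9.

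The family was made up of different members in each tissue. Levels were compared per kilobase of merged exon (GENCODE vM21), since reads scale with transcript length. In muscle, Car3, the low-activity cytosolic enzyme that is a major protein of skeletal muscle, held 80.5 to 93.5% of the summed level of all carbonic anhydrases in a library. Its median was 314 CPM per kb over 36 libraries, against 17.7 for Car14, 7.03 for Car4, 4.01 for Car2, 3.95 for Car8 and 3.41 for Car11. Car9 (0.672), Car7 (0.486) and Car5b (0.257) were the lowest members. Car3 was above Car14, and Car14 above Car4, in 36 of 36 muscle libraries. Car2 and Car8 were not ordered: Car2 was above Car8 in 20 of 36 libraries, and Car8 above Car11 in 23 of 36.

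**Figure D1:**
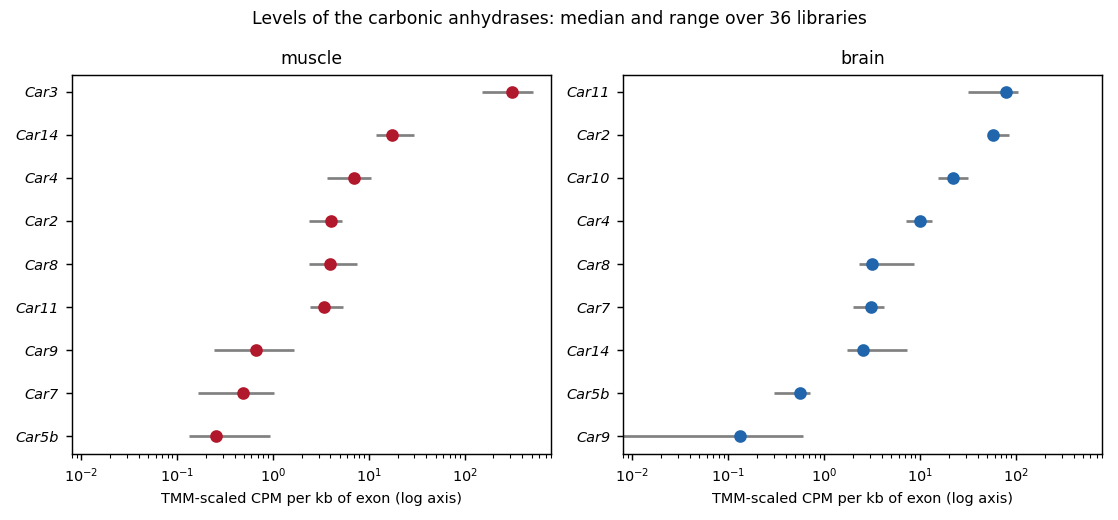
Level of each carbonic anhydrase in muscle (left) and brain (right), in TMM-scaled CPM per kb of exon on a log axis; points are medians and bars the range over 36 libraries. Car3 stood alone at a median of 314 in muscle, while Car11 (79.3) and Car2 (57.8) led in brain; the Car9 bar in brain runs to the left edge because its lowest value was 0.

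In brain, the highest members were Car11, a secreted carbonic anhydrase-related protein, with a median of 79.3 CPM per kb, and Car2, the fast cytosolic enzyme, with 57.8. Car11 was above Car2 in 34 of 36 libraries. Car10, another related protein, followed with 22.1 and Car4 with 10.1, and each was above the next gene in 36 of 36 libraries. Car8 (3.16) and Car7 (3.13) could not be ordered, Car8 being higher in 23 of 36 libraries. Car14 had 2.54, Car5b 0.567 and Car9 0.133 CPM per kb. Of the other carbonic anhydrases, Car1, Car12, Car13 and Car15 were measured in muscle and Car12, Car13 and Car15 in brain. In muscle their medians lay between 0.0345 (Car12) and 0.389 (Car15) CPM per kb, and in brain between 0.912 (Car13) and 3.24 (Car15).

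**Figure D2:**
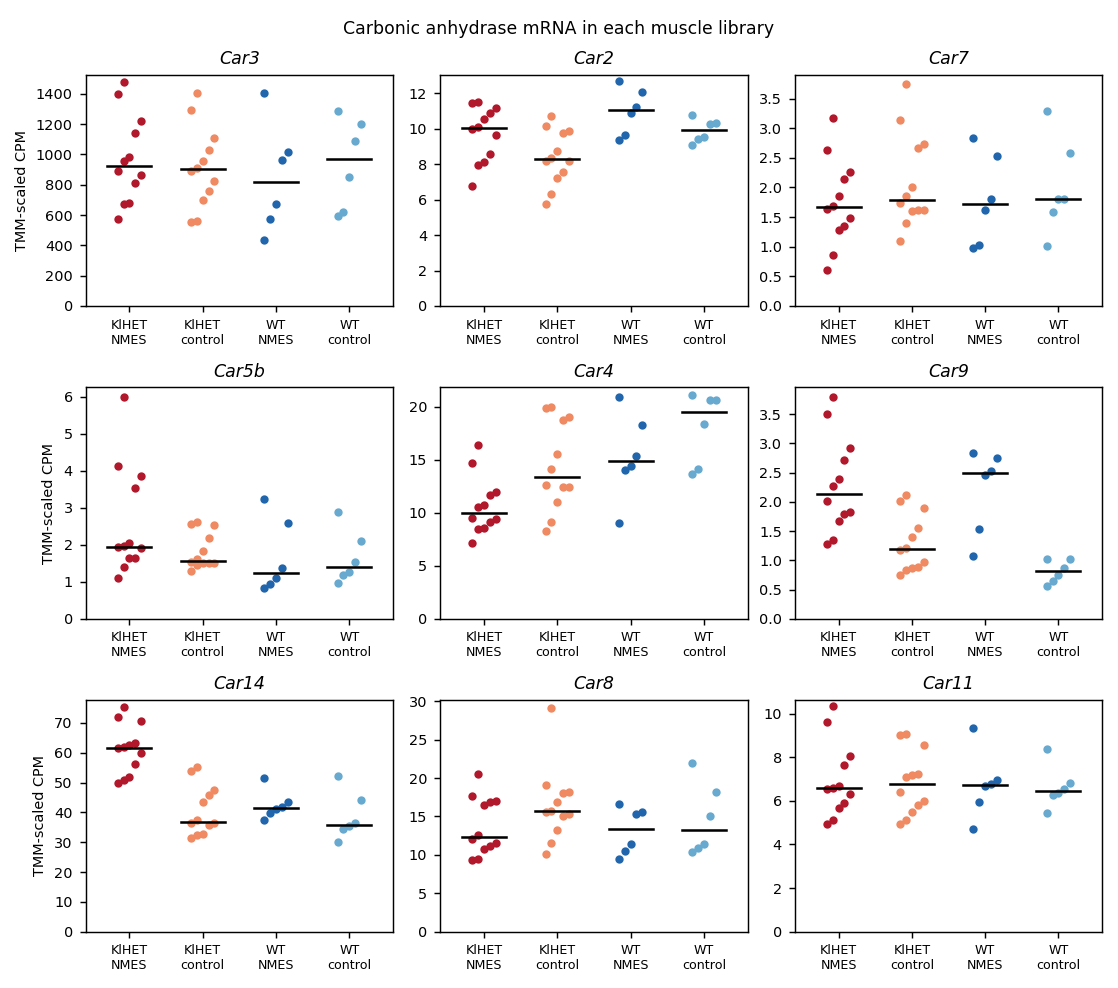
TMM-scaled CPM of the 9 members in each muscle library, by group (KlHET NMES and control, 12 each; WT NMES and control, 6 each); bars are medians and each axis starts at 0. Car9 lay higher in NMES than in control mice of both genotypes, and Car14 at a median of 61.7 in KlHET NMES mice, above the other groups.

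Car9 is the transmembrane enzyme with an outward catalytic domain that is a standard target of hypoxia-inducible factor. In WT muscle it measured 2.76, 2.46, 2.83, 1.54, 2.53 and 1.08 CPM in the 6 NMES mice, against 0.653, 0.876, 1.02, 1.02, 0.560 and 0.757 CPM in the 6 controls. Every WT NMES library was above every WT control library. In KlHET muscle the lowest, median and highest values were 1.28, 2.14 and 3.80 CPM after NMES and 0.750, 1.20 and 2.13 CPM in controls. Here the ranges overlapped, and 6 of 12 NMES libraries were above all controls. The log2 difference of NMES minus control was 1.00 ± 0.22 in WT, 0.62 ± 0.15 in KlHET and 0.81 ± 0.13 SE over both genotypes, with 18 of 18 NMES libraries above the mean of their controls on that log2 scale. The gene rests on 9 to 62 reads a library, and on recovered whole reads edgeR gave 1.43 in WT, against 1.00 with the added 0.5. The gene runs on the plus strand of chromosome 4, 43506966 to 43513729 in GRCm38. An annotated antisense transcript, Gm12454, overlaps 214 exon bases of Car9, and whether reads were counted by strand is not stated. Higher ranges without overlap between WT NMES and WT control libraries held for 0.674% of all genes, and the Car9 pattern is what drew attention to the family.

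Car14, the other transmembrane enzyme with an outward catalytic domain, is known in muscle at the sarcolemma and sarcoplasmic reticulum. In KlHET muscle it had a lowest, median and highest value of 49.7, 61.7 and 75.3 CPM after NMES and 31.3, 36.9 and 55.2 CPM in controls. Of the 12 NMES libraries, 9 were above all 12 controls, and 10 controls were below all NMES libraries. The ranges overlapped, so Car14 is not among the 0.0074% of genes whose ranges lay higher after NMES without overlap. The share of genes with counts like those of Car14 was not taken. WT muscle gave 37.6, 41.5 and 51.4 CPM after NMES and 30.1, 35.8 and 52.3 CPM in controls, and the ranges overlapped: 4 of 6 controls were below all NMES libraries, while 1 control, at 52.3 CPM, was above them all. NMES minus control was 0.60 ± 0.09 in KlHET, 0.15 ± 0.13 in WT and 0.37 ± 0.08 SE over both genotypes. The KlHET difference exceeded the WT difference by 0.45 ± 0.16 (SE), whereas for Car9 the KlHET difference minus the WT difference was -0.38 ± 0.27. These values belong to the comparisons from which the family was selected and carry no test, and 0% of all genes passed the threshold for a genotype-dependent response. Car14 runs on the minus strand of chromosome 3, 95897768 to 95904691, and shares 445 exon bases with Aph1a on the opposite strand. Aph1a measured 14.5 to 22.8 CPM in muscle, and its NMES minus control difference was -0.04 ± 0.05 SE (limma adjusted p = 0.757).

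The other members differed less between NMES and control muscle. Car4, the lipid-anchored enzyme of the capillary wall, had a median of 10.0 CPM in KlHET NMES and 13.4 in KlHET control mice, and 14.9 in WT NMES and 19.5 in WT control mice, with overlapping ranges (log2 difference -0.33 ± 0.12, lower in 14 of 18 NMES libraries). Car2 gave 0.17 ± 0.08, Car5b 0.13 ± 0.17, Car11 0.01 ± 0.10, Car3 -0.06 ± 0.16, Car7 -0.18 ± 0.16 and Car8 -0.19 ± 0.13 SE. Over both genotypes 2 of 9 members passed limma's adjusted threshold of 0.05, Car9 and Car14, both higher, where 1.78% of 13505 genes passed in either direction, 1.27% higher and 0.511% lower. In KlHET alone the same 2 passed (0.644% of genes), and in WT alone none did, with 0.0148% of genes passing. At an unadjusted p under 0.05, 4 of 9 members were counted over both genotypes, against 2358 of all 13505 genes. DESeq2, and limma with voom weights, each counted 1 member past the adjusted threshold in WT, as did limma without WT NMES replicate 6. The shares of all genes in those fits are not given here. Since NMES muscle values chose the family, these counts are descriptions.

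KlHET and WT muscle were compared over both treatments, a contrast that is orthogonal to the NMES differences with these group sizes. It still uses the same libraries and the same estimate of spread. For Car9 and Car14 its p is therefore not independent of how the family was selected. Car14 was higher in KlHET muscle by 0.29 ± 0.08 SE (limma adjusted p = 0.00566, above the WT mean in 17 of 24 KlHET libraries). Its medians were 61.7 CPM in KlHET NMES against 41.5 in WT NMES mice, but 36.9 in KlHET control against 35.8 in WT control mice. By treatment, KlHET minus WT was 0.52 ± 0.11 in NMES mice and 0.07 ± 0.11 SE in controls. That split is the same quantity as the genotype-dependent NMES response above, so it carries no test of its own. Aph1a, its overlapping neighbour, ran the other way (-0.13 ± 0.05, adjusted p = 0.0522).

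Car4 was lower in KlHET muscle by a log2 difference of -0.42 ± 0.12 SE (limma adjusted p = 0.00868), below the WT mean in 19 of 24 KlHET libraries. The lowest, median and highest values were 7.19, 10.0 and 16.4 CPM in KlHET NMES against 9.06, 14.9 and 20.9 CPM in WT NMES mice, and 8.30, 13.4 and 20.0 CPM in KlHET control against 13.6, 19.5 and 21.1 CPM in WT control mice. The ranges overlapped in both pairs, and lower ranges without overlap held for 0.733% of genes in NMES mice and 0.703% in controls. In NMES mice alone the difference was -0.49 ± 0.17 (adjusted p = 0.0420), a call lost with total-count scaling (adjusted p = 0.111), voom (0.063), a fit to the compared groups only (0.0504) or without any 1 of KlHET NMES replicates 1, 3, 4 and 12 or WT NMES replicates 1, 3, 4, 5 and 6 (adjusted p of 0.0552 to 0.124, the highest without WT NMES replicate 1). In controls alone it was -0.35 ± 0.17 (adjusted p = 0.218). Car4 is known from capillaries, and of the 10 endothelial genes in the list, 1, the lipase-binding protein gene Gpihbp1, was lower in KlHET muscle (-0.40 ± 0.12, adjusted p = 0.00909), and 0 were higher. The median of the list was 0.20, with 6 of 10 above 0. The endothelial genes summed to 433 to 859 CPM in KlHET NMES against 395 to 765 CPM in WT NMES mice, and to 478 to 1090 CPM in KlHET control against 540 to 867 CPM in WT control mice. Their part in the Car4 difference was not tested. In whole tissue, fewer cells of a type and less RNA per cell cannot be told apart.

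Car2 was lower in KlHET muscle by -0.21 ± 0.08 SE (limma adjusted p = 0.0355, 19 of 24 libraries). Its medians were 10.1 CPM in KlHET NMES against 11.1 in WT NMES mice, and 8.28 in KlHET control against 9.91 in WT control mice, where 8 of 12 KlHET controls were below all WT controls. The call did not hold when total counts replaced TMM factors (-0.11, adjusted p = 0.318). Leaving out WT control replicate 3, 4 or 5, or WT NMES replicate 2 or 3, gave adjusted p of 0.0514 to 0.0693. Of the others, Car5b had 0.32 ± 0.17 (adjusted p = 0.137), Car9 0.24 ± 0.13 (0.171), Car8 0.11 ± 0.13 (0.522), Car3 0.11 ± 0.16 (0.627), Car11 0.03 ± 0.10 (0.848) and Car7 0.01 ± 0.16 (0.979). In all 3 of 9 members passed, 1 higher and 2 lower, where 31.5% of all genes passed, 16.1% higher and 15.4% lower, so the members' share is near that of all genes. In NMES mice 2 of 9 were past the threshold, Car4 lower and Car14 higher (19.1% of genes, 9.26% higher and 9.87% lower). The Car14 value there uses the NMES libraries that chose the family and is a description, not a test. In controls 0 of 9 were past the threshold by limma (6% of genes, 2.59% higher and 3.41% lower), and 0 by DESeq2 or edgeR. For Car9 and Car14 those counts reuse control libraries of the NMES comparison and are descriptions.

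Car9 did not differ in step with Car14 between genotypes. Its control medians were 1.20 CPM in KlHET against 0.816 CPM in WT muscle, with 7 of 12 KlHET controls above the highest WT control (0.43 ± 0.19 SE). In NMES mice the medians were 2.14 CPM in KlHET and 2.50 CPM in WT muscle (0.05 ± 0.19 SE). Both differences reuse libraries of the NMES comparison and are given without a test.

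Genes that work beside the enzymes were taken as lists, which were drawn up with earlier results of these data known. After NMES in muscle, 2 of 9 proton and lactate transporter genes rose and 0 fell, against 1.27% and 0.511% of all genes: Slc16a3, the lactate exporter MCT4, by 0.36 ± 0.10 (limma adjusted p = 0.0453) and Bsg, its chaperone basigin, by 0.21 ± 0.05 (adjusted p = 0.0322, higher in 18 of 18). The median of that list was 0.04, against -0.01 over all genes. Of 6 bicarbonate transporter genes none passed, and Slc4a4, the sodium bicarbonate cotransporter, had 0.42 ± 0.12 (adjusted p = 0.0536). Of 16 hypoxia-responsive genes 0 passed and 8 were above 0 (median -0.01). Hk2, the hexokinase gene and the highest of the list, had 0.15 ± 0.07 (adjusted p = 0.236), and Vegfa, the vascular growth factor gene, had 0.26 ± 0.08 (adjusted p = 0.0842). The 4 other carbonic anhydrases gave 0 calls, with Car1 at -0.28 ± 0.13 (adjusted p = 0.246) and Car15 at 0.28 ± 0.15 (adjusted p = 0.323). At an unadjusted p under 0.05, 2358 of all 13505 genes were counted in this comparison.

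In KlHET against WT muscle, 4 of 16 hypoxia-responsive genes were higher and 2 lower, near the 16.1% and 15.4% of all genes. Slc2a1, the glucose transporter, was higher by 0.48 ± 0.11 (limma adjusted p = 0.000782) and P4ha1, a collagen prolyl hydroxylase, by 0.27 (adjusted p = 0.00134), with Kdm3a, a histone demethylase, at 0.26 (adjusted p = 0.00457) and Higd1a, a mitochondrial stress protein, lower at -0.35 ± 0.05 (adjusted p = 8.29e-06). Among proton and lactate transporters 2 of 9 were higher, among them the sodium-proton exchanger Slc9a2 (0.23 ± 0.07, adjusted p = 0.0124), and 1 was lower, the lactate transporter Slc16a1 (-0.24 ± 0.08, adjusted p = 0.0265). Slc4a2, an anion exchanger, was the 1 of 6 bicarbonate transporters that rose (0.20 ± 0.07, adjusted p = 0.0239). Itpr1, the calcium release channel to which Car8 binds, rose by 0.38 ± 0.11 (adjusted p = 0.00647), while Car8 itself had 0.11 ± 0.13.

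Within groups, several muscle members varied with genes of particular cell types. These are Pearson correlations over 36 libraries after subtracting group means. They share library, depth and dissection and are given as descriptions. Car5b, the mitochondrial enzyme, went with the mean of 12 adipocyte genes (r = 0.804), and the genes most like it were Cfd (0.788), Cidec (0.785), Cebpa (0.774), Cyp2e1 (0.764) and Adipoq (0.739), which are known in fat. Its highest values, 5.99, 4.13, 3.85 and 3.54 CPM, were in KlHET NMES replicates 4, 1, 8 and 5. In NMES mice Car5b had a KlHET minus WT difference of 0.49 ± 0.24 (limma adjusted p = 0.137), which leaving out 1 library moved between 0.37 (adjusted p = 0.329, without WT NMES replicate 5) and 0.67 (adjusted p = 0.0489, without WT NMES replicate 1). Of the adipocyte genes, 5 of 12 were higher in KlHET than WT muscle and 0 lower, against 16.1% and 15.4% of all genes, led by Lipe, the hormone-sensitive lipase (0.44 ± 0.09, limma adjusted p = 0.000297), Pck1 (1.11 ± 0.34, adjusted p = 0.0132), Plin1 (1.08 ± 0.34, adjusted p = 0.0156) and Plin4 (0.33 ± 0.12, adjusted p = 0.0268). The adipocyte genes summed to 849 to 1230 CPM in KlHET NMES, 795 to 1040 in KlHET control, 750 to 1100 in WT NMES and 781 to 1170 in WT control mice, and none was at 0 in all libraries.

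Car4 went with the mean of 10 endothelial genes (r = 0.680), with Ablim3 (0.825), Dock9 (0.805), N4bp3 (0.800), Kank3 (0.792) and Map4k2 (0.788) most like it. Car8 also went with that mean (r = 0.628), and the genes most like it included Kdr (0.764) and Nrp1 (0.763), the endothelial receptors of vascular growth factor, then Cd38 (0.739), Arhgap18 (0.736) and Gimap6 (0.719). After NMES all 10 endothelial genes had differences below 0 (median -0.24) and 0 passed. Beside Car9 moved the mean of 8 slow fibre genes (r = 0.567), of 7 satellite cell and myoblast genes (r = 0.490), of 16 hypoxia-responsive genes (r = 0.477) and of 8 Schwann cell genes (r = 0.439). The slow fibre genes had a median difference of 0.57 after NMES, 7 of 8 above 0 and 0 passed. They summed to 142 to 1640 CPM in KlHET NMES against 146 to 757 in KlHET control mice, and to 115 to 483 CPM in WT NMES against 148 to 480 CPM in WT control mice. Their part in the Car9 difference was not tested. Without muscle KlHET NMES replicate 9 the Car9 difference over both genotypes was 0.82 and that of Car14 was 0.39.

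The genes most like Car14 in muscle were Myot (0.710), a Z-disc protein gene, Grpel2 (0.694), Ssr4 (0.669), Ankrd2 (0.661), a gene known to respond to stretch, and Nfu1 (0.646). Car3 had Arl6ip5 (0.788), Phtf2 (0.773), Ifngr2 (0.772), Mpi (0.762) and Dync1li2 (0.756). It went against Car7 (r = -0.546). Car9 had Chmp2b (0.651), Emc6 (0.581), Cpsf6 (0.568), Togaram2 (0.564) and Zbtb26 (0.564), Car7 had Tcf7l1 (0.797) first, Car11 Clptm1l (0.603) and Car2 Nup50 (0.587) and Mrpl34 (0.587). Of the 45 such genes in muscle, 5 for each member, 17 were among the first 5 when group means were not subtracted.

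**Figure D3:**
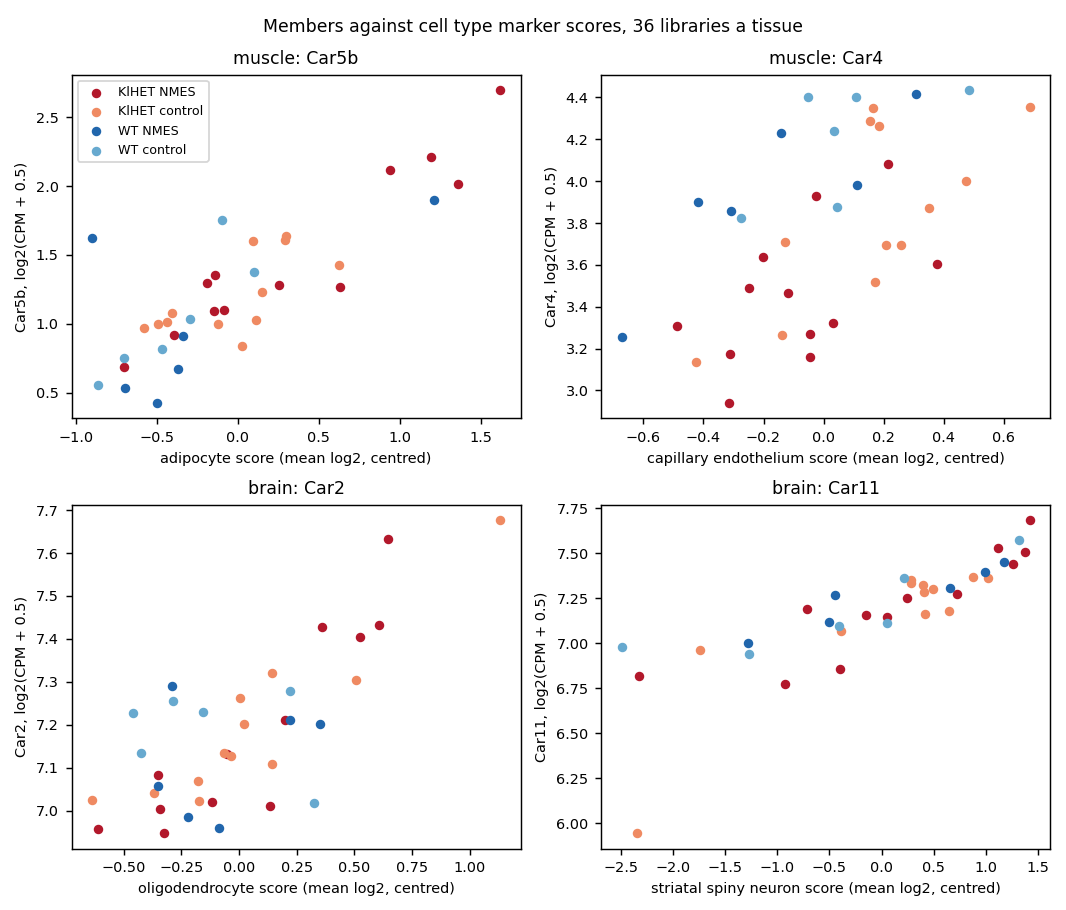
Level of a member (log2 of TMM-scaled CPM + 0.5) against the mean of a cell type's marker genes, centred on its mean over libraries, in 36 libraries a tissue, coloured by group. Car5b rose with adipocyte genes (r = 0.804) and Car4 with endothelial genes (r = 0.680) in muscle, and Car2 with oligodendrocyte genes (r = 0.762) and Car11 with striatal neuron genes (r = 0.843) in brain; these r are within groups.

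**Figure D4:**
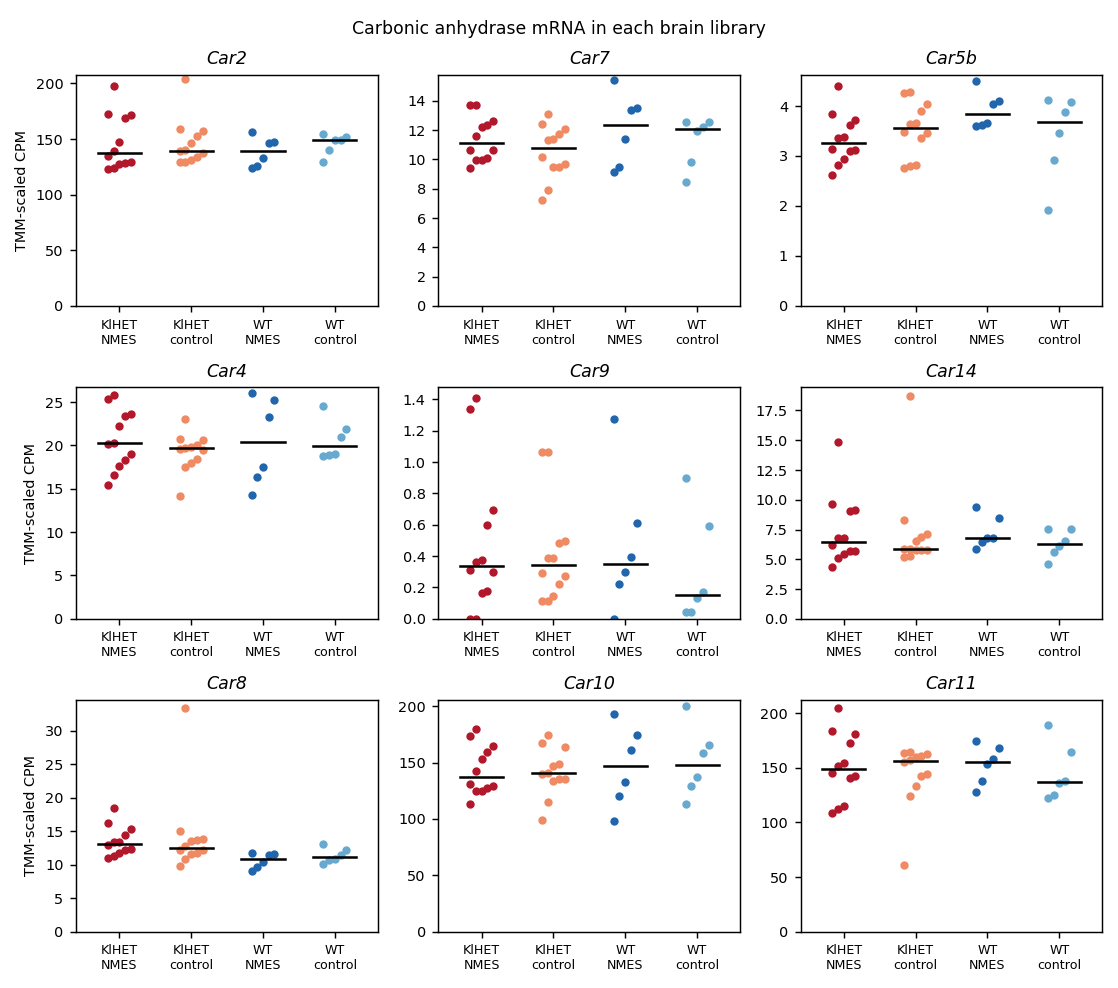
TMM-scaled CPM of the 9 members in each brain library, by group (KlHET NMES and control, 12 each; WT NMES and control, 6 each); bars are medians and each axis starts at 0. No member separated NMES from control mice, and the high point of Car8 (33.4) and Car14 (18.7) and the low point of Car11 (61.1) belong to the same library, KlHET control replicate 7.

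In brain no member passed the test between NMES and control mice. Over both genotypes 0 of 9 members passed (0% of 15400 genes by limma, and 0 of 9 members at an unadjusted p under 0.05 or by edgeR, DESeq2 or voom). Differences lay between -0.05 ± 0.10 (Car8) and 0.13 ± 0.19 (Car9). For Car2 the 95% interval was -0.13 to 0.09, for Car4 -0.14 to 0.18, for Car10 -0.20 to 0.17 and for Car11 -0.14 to 0.30. Car9 and Car14, which moved in muscle, gave 0.13 ± 0.19 (adjusted p = 1) and 0.12 ± 0.14 (adjusted p = 1). Car9 was near the detection limit, with 0 to 36 reads a library and medians of 0.340 CPM in KlHET NMES, 0.340 in KlHET control, 0.347 in WT NMES and 0.152 in WT control mice. By genotype, Car5b had the largest difference between the NMES responses among the 9 members: 0.21 ± 0.13 in WT, where 6 of 6 NMES libraries were above the control mean, and -0.07 ± 0.09 in KlHET, a difference of -0.28 ± 0.16 (adjusted p = 0.999).

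Between KlHET and WT brain, 0 of 9 members passed over both treatments, where 0.591% of genes did. Car8, which is known for binding the inositol trisphosphate receptor and is most abundant in Purkinje cells, came nearest. Its lowest, median and highest values were 11, 13.1 and 18.5 CPM in KlHET NMES against 9.00, 10.9 and 11.7 CPM in WT NMES mice, and 9.81, 12.6 and 33.4 CPM in KlHET control against 10.2, 11.1 and 13.1 CPM in WT control mice. Of the 12 KlHET NMES libraries, 10 were above all 6 WT NMES libraries. The difference was 0.28 ± 0.10 (limma adjusted p = 0.257), with 22 of 24 KlHET libraries above the WT mean. Without KlHET control replicate 7, the library at 33.4 CPM, it was 0.23 (limma adjusted p = 0.104). With voom, which weights libraries by quality, it was 0.25 (adjusted p = 0.0347). The share of all genes that passed with voom is not given here. The 4 Purkinje and cerebellar genes summed to 133 to 207 CPM in KlHET NMES against 157 to 218 CPM in WT NMES mice, and to 142 to 298 CPM in KlHET control against 138 to 185 CPM in WT control mice, and their part in the Car8 difference was not tested. Within controls and within NMES mice 0 of 9 members passed as well. The share of all genes that passed was 0.0714% in controls (0.0519% higher, 0.0195% lower) and 0.0974% in NMES mice (0.0584% higher, 0.039% lower). In NMES mice Car8 was the only member with an unadjusted p under 0.05. The share of all genes at that level is not given here. The intervals of the other members were -0.09 to 0.17 for Car2, -0.19 to 0.13 for Car4, -0.23 to 0.09 for Car5b, -0.25 to 0.08 for Car7, -0.29 to 0.50 for Car9, -0.22 to 0.14 for Car10, -0.26 to 0.18 for Car11 and -0.25 to 0.32 for Car14.

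Partner genes gave no calls in brain after NMES, where 0% of all 15400 genes passed by limma, so no list could hold a call. After NMES, 0 of 10 bicarbonate transporters, 0 of 10 proton and lactate transporters, 0 of 16 hypoxia-responsive genes and 0 of 2 chloride transporters passed, at limma adjusted p of 1 for the highest gene of each list. Slc4a10, a neuronal bicarbonate transporter, had -0.02 ± 0.07, Bsg -0.05 ± 0.03, Ndrg1 0.06 ± 0.11 and Slc12a5, the neuronal chloride extruder, -0.00 ± 0.04. Of the binding partners of the related proteins, 0 of 4 passed in NMES minus control or in KlHET minus WT (0.591% of genes). Itpr1 had 0.08 ± 0.13 after NMES. The transporter and hypoxia lists are not given here for KlHET minus WT brain.

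Brain members varied with marker genes of cell types between libraries. Car11 went with the mean of 9 striatal spiny neuron genes (r = 0.843), and the genes most like it were Camkv (0.974), Arpp21 (0.965), Akap5 (0.961), Inf2 (0.957) and Fbxl16 (0.955). Camkv, Arpp21 and Akap5 encode neuronal signalling proteins of dendrites and spines. Car11 also went with 6 inhibitory neuron genes (r = 0.762), 7 microglia genes (r = 0.634) and 7 excitatory neuron genes (r = 0.632). It ran against 9 astrocyte genes (r = -0.851) and 4 Purkinje and cerebellar genes (r = -0.75). The striatal genes summed to 404 to 4010 CPM in KlHET NMES, 302 to 3070 in KlHET control, 673 to 3390 in WT NMES and 344 to 3660 in WT control mice. Car11 itself ranged over 61.1 to 205 CPM, the lowest in KlHET control replicate 7. Car2, known as an oligodendrocyte enzyme, went with 12 oligodendrocyte genes (r = 0.762) and as closely with 8 Schwann cell genes (r = 0.791), a list that shares myelin genes with the first, and 10 choroid plexus genes (r = 0.771). It was most like Ndrg1 (0.853), Evi2a (0.839), Qdpr (0.839), Ermn (0.835) and Gatm (0.827). It ranged over 123 to 204 CPM, the highest again in KlHET control replicate 7. Car10 and Car4 went together (r = 0.747) and shared Nr2f1, a cortical patterning transcription factor gene, among their most like genes (0.861 for Car10 and 0.849 for Car4). Car10 went with 7 excitatory neuron genes (r = 0.682) and against Schwann cell (r = -0.689) and oligodendrocyte genes (r = -0.676). It also ran against the 3 genes of the muscle satellite cell list measured in brain (r = -0.723), which are not taken as cell type markers there. Lasp1 (0.876), Baalc (0.865), Zdhhc8 (0.863) and Htr5a (0.855) completed the genes most like Car10, and Boc (0.800), Tmem25 (0.783), Camk2g (0.776) and Faah (0.771) those most like Car4.

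Car14 in brain went with 4 Purkinje and cerebellar genes (r = 0.778) and choroid plexus genes (r = 0.743) and against excitatory neuron genes (r = -0.790). Its most like genes were Gstm7 (0.900), Tcf7l2 (0.896), Ret (0.873), Amotl1 (0.868) and Plekhg1 (0.858), of which Tcf7l2 is a thalamic transcription factor gene. Its highest values were 18.7 CPM in KlHET control replicate 7 and 14.9 CPM in KlHET NMES replicate 9, both among the 5 libraries with high choroid plexus genes, against at most 9.60 CPM elsewhere. With both libraries left out, KlHET minus WT was -0.07 for Car14, against 0.03 with them. Car9 also went with choroid plexus (r = 0.790) and oligodendrocyte genes (r = 0.757). Car7, a neuronal cytosolic enzyme, was most like Lrrc75a (0.790), Mgst3 (0.788), Ube2ql1 (0.771), Mcrs1 (0.768) and Cacnb3 (0.766). It ran against oligodendrocyte genes (r = -0.631) and the same 3 genes of the muscle satellite cell list (r = -0.645), again not taken as cell type markers in brain. Car8 had Ccdc136 (0.774), Ube2j1 (0.771), Insig1 (0.770), Rab11fip5 (0.758) and Cptp (0.755). Among the lists, it went with Purkinje and cerebellar genes (r = 0.559) and against microglia genes (r = -0.586). Car8 was at 33.4 CPM in KlHET control replicate 7 and at most 18.5 CPM elsewhere. Its r without that library is not given here. Car5b had Stx7 (0.721), Slc22a8 (0.702), Cnrip1 (0.699), Tpp1 (0.696) and Fmo1 (0.695). Of the 40 such genes in brain, 31 were among the first 5 when group means were not subtracted.

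The level of a member in an animal's muscle showed little relation to that in its brain. Over 36 animals, within groups, r between tissues lay between -0.201 (Car5b) and 0.150 (Car4) for the 8 members measured in both.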

How the data were processed

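RNA-seq of 36 muscle and 36 brain samples was analysed. The authors aligned and counted reads with Rsubread against mm10 and deposited CPM per gene, made with edgeR 4.0.16 per the labels, with low genes already filtered. Whether counting used strand is not stated. The deposited CPM values were whole multiples of 1 read for 100% of values (tolerance 1e-06), which gave whole reads and depths.

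CPM were divided by TMM factors (0.855 to 1.23 in muscle, 0.962 to 1.07 in brain; edgeR 4.0.16). Genes passing edgeR's expression filter (13505 in muscle, 15400 in brain, with 9 of 9 members in each) were fitted by limma 3.58.1 (R 4.3.3; trend, robust) on log2(CPM + 0.5), with 4 group means over all 36 libraries of a tissue. P-values are 2-sided, Benjamini-Hochberg adjusted over all genes, and called below 0.05. edgeR's quasi-likelihood test, DESeq2 1.42.0 and voom on the recovered reads were alternatives, as the deposited unit is CPM. The fit was also run on simulated counts with the same dispersion for every gene and no tissue-mix or cohort differences. That setting is simpler than these data, and no result here rests on it.

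Members and lists were chosen with earlier results of these data known. Named genes are all members, up to 4 genes a list that passed or else its highest-expressed gene, and the 5 genes most correlated with each member at a mean of at least 1 CPM, among genes above a mean log2 CPM of 2 without predicted symbols. Vegfa, Car1 and Aph1a were named after their values were seen. Some genes of the lists are not reported here by name. Each library is a separate mouse, and its muscle and brain share that mouse. Figures were drawn with matplotlib 3.10.9.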

Additional observations from a re-analysis of the deposited data

How the results depend on the processing

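Of 1267 refits of a member under another setting, 59 changed sign, none of them a called value, and the largest main difference concerned was 0.15. Leave-one-out refits changed sign in 185 of 4536. In muscle, members past the threshold after NMES in KlHET went to 1 with total-count scaling, DESeq2 or only the compared groups, and to 1 or 2 leaving out a library (main 2). In WT they were 1 with DESeq2, voom or an Xist covariate, and 0 or 1 leaving out a library (main 0). KlHET minus WT in NMES mice gave 1 with total-count scaling, voom or only the compared groups, and 1 or 2 leaving out a library (main 2). Total-count scaling moved the median of all genes to 0.114 in KlHET minus WT over both treatments and to 0.141 in NMES mice. In brain, KlHET minus WT gave 1 with voom (Car8, main 0). The shares of all genes past the threshold in these other fits are not given here.

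Uncalled differences that changed sign were small. Car9 in muscle, KlHET minus WT in NMES mice, was -0.00583 with the Xist covariate. With voom in brain, Car4 was -0.00112 and Car5b -0.0335 after NMES, and Car11 0.0712 and Car14 -0.0468 for KlHET minus WT. Leaving out brain KlHET control replicate 7 and KlHET NMES replicate 9 together, chosen after seeing the data, gave Car8 0.00876 after NMES, and Car2 -0.00554, Car11 0.0359 and Car14 -0.0750 for KlHET minus WT. Leaving out each library in turn gave, for KlHET minus WT in brain, Car4 -0.0806 to 0.00511, Car10 -0.0964 to 0.00212, Car11 -0.0638 to 0.0158 and Car14 -0.0279 to 0.0714. For NMES in brain it gave Car4 -0.0168 to 0.0697, Car8 -0.0746 to 0.00145 and Car10 -0.0607 to 0.0386. For KlHET minus WT in muscle it gave Car7 -0.0642 to 0.0730 and Car11 -0.0155 to 0.0733, Car9 -0.0978 to 0.117 in NMES mice and Car14 -0.000951 to 0.157 in controls. No paired analysis was possible because the labels give no replicate numbers shared by groups. Depth limits Car9 in brain (0 to 36 reads) and Car9, Car5b and Car7 in muscle (9 to 62, 13 to 125 and 12 to 70 reads).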
